A study of Salix matsudana with 3 samples.

Results

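The miR169 family of Salix matsudana, the Chinese willow, is described here together with the NF-YA transcripts at its listed cleavage sites. Entries were taken by their family number in the deposited names, which gave 3 of the 205 small RNA entries. They are ptc-miR169ac_R+2, ptc-miR169z_L-1R+2_1ss14TC and ptc-miR169ab_1ss11AT, written below without their suffixes. In the degradome, 17 of 981 pairs, each of a small RNA with its cleavage site, carry the same family number. The study compared roots and stems of 30-day-old plants that were left untreated with those of plants kept for 2 days in 100 mmol per litre NaCl, asking which miRNAs respond to salt and what they cut. Each condition had 1 small RNA library, and 1 degradome library, which sequences the 5′ ends of cleaved messenger RNA, was made from a mixture of their RNA. The labels name no variety or clone and do not say how many plants were pooled. There was no untreated library at the later time, so salt and elapsed time cannot be told apart. Because each condition rests on 1 library, no test of salt could be made, and every interval below covers counting error only.

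miR169 is a conserved plant miRNA that pairs with messenger RNAs of NF-YA genes and directs ARGONAUTE to cut them. NF-YA is the subunit that gives the NF-Y trimer, built from an A, a B and a C subunit, its binding to CCAAT boxes in promoters. In Arabidopsis, miR169 and its NF-YA targets are known from responses to drought and to nitrogen shortage and from root growth, and the target site of several NF-YA genes lies in the 3′ untranslated region.

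The mature sequences are shown because most of the family's reads and all of its cleavage sites belong to different entries that resemble each other closely. Capitals mark the seed, bases 2 to 8 from the 5′ end.
ptc-miR169ac: tAGCCAAGgacgacttgcccacc
ptc-miR169z: aGCCAAGAatgacttgccggcg
ptc-miR169ab: cAGCCAAGgatgacttgccc

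The entries miR169ac and miR169ab share the seed AGCCAAG, which no entry of another family holds. Over the 20 bases at which they overlap they differ at 2, T1C and C11T, counted from 1 at the 5′ end of miR169ac. The entry miR169z starts 1 base further in, so its bases 2 to 8 read GCCAAGA. Over 22 overlapping bases it differs from miR169ac at 5, which are G9A, C11T, C20G, A21G and C23G on the same numbering. From miR169ab it differs at 2 of 19 overlapping bases, and over those same bases it differs from miR169ac at G9A, C11T and C20G. The positions of A21G and C23G lie past the end of miR169ab. All 3 share the run gacttgcc of 8 bases, which no other of the 205 entries holds. No contig or precursor is listed beside any of the 3, whereas 84 entries of the table have one, so their position in the willow genome is not given here.

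Nearly all miR169 reads came from miR169ac in both libraries. Untreated plants gave 20918.5 estimated reads of it and salt-treated plants 1698. Levels are given as reads per 1000000 reads of all listed entries (RPM), from totals of 4622984 untreated and 734026 salt reads, a 6.30-fold difference in depth. On that scale miR169ac stood at 4525 RPM (95% exact interval 4464 to 4587) in untreated plants and at 2313 RPM (2205 to 2426) under salt. The level was thus lower in the salt library, and the counting intervals did not overlap. It made up 99.99% of the family's untreated reads and 99.94% of its salt reads. By read number miR169ac ranked 16 among the 205 entries in untreated plants and 27 under salt.

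The other members lay at the limit of detection. The entry miR169z had 1 read in each library, which is 0.216 RPM in untreated plants and 1.36 RPM under salt. That 6.30-fold ratio of its shares is the difference in depth alone, with an interval from 0.0802 to 494.4. The entry miR169ab had 1.5 estimated reads in the untreated library, or 0.324 RPM, and 0 in the salt library. At an equal share 0.238 salt reads would be listed, so a decrease of miR169ab was not detectable at this depth, and the interval of the ratio of salt over untreated shares reached up to 33.5. A floor of 3 reads for a count of 0 is 4.09 RPM in the salt library, and the upper bound of the 95% exact interval is 5.03 RPM. The untreated counts of miR169ac and miR169ab each end in 0.5, and the sources used here do not say which entries shared those reads.

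**Figure D1:**
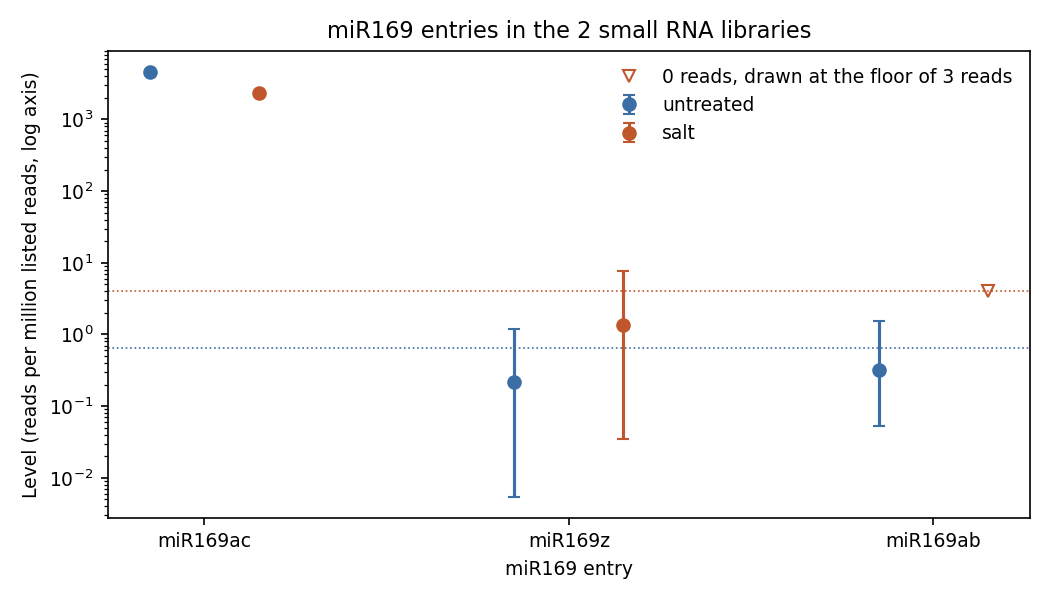
Level of each miR169 entry in the untreated (blue) and salt (orange) library, in RPM on a log axis, with 95% exact counting intervals as bars and the floor of 3 reads per library as dotted lines. miR169ac stands at 4525 and 2313 RPM, while miR169z and miR169ab have at most 1.5 reads in a library, and the open triangle marks the 0 salt reads of miR169ab.

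Summed over its 3 entries, the family took 0.453% of the listed reads in untreated plants and 0.231% under salt. By summed reads it ranked 13 of 76 numbered families in untreated plants and 20 under salt. The share was 1.96-fold lower in the salt library (95% interval 1.86 to 2.06). On the log2 scale of level + 1 this was a difference of -0.97, both for the sum and for miR169ac alone.

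Of the members, miR169ac alone reached the mean level of 10 RPM required for a ratio to be read. On the main scale it was not called at 2-fold. Its counting interval spans 2-fold. Among the 115 entries at that level, 13.0% were lower under salt by at least 2-fold and 32.2% higher, and the median log2 ratio was 0.33, with quartiles at -0.41 and 1.54. The log2 ratio of miR169ac was the 17th lowest of the 115. Among the 43 families at that level 16.3% were at least 2-fold lower and 30.2% higher, and the miR169 sum had the 8th lowest ratio. Relative to the median entry, miR169ac was 1.30 log2 units lower. The call depends on the total, in which sequences listed under several names are counted under each. Among these are ptc-miR159a_R-1 and cpa-miR159a_R-1, each at 132998 RPM in untreated plants and 22100 RPM under salt. With identical sequences counted once in the total, miR169ac was 2.20-fold lower and so past 2-fold.

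**Figure D2:**
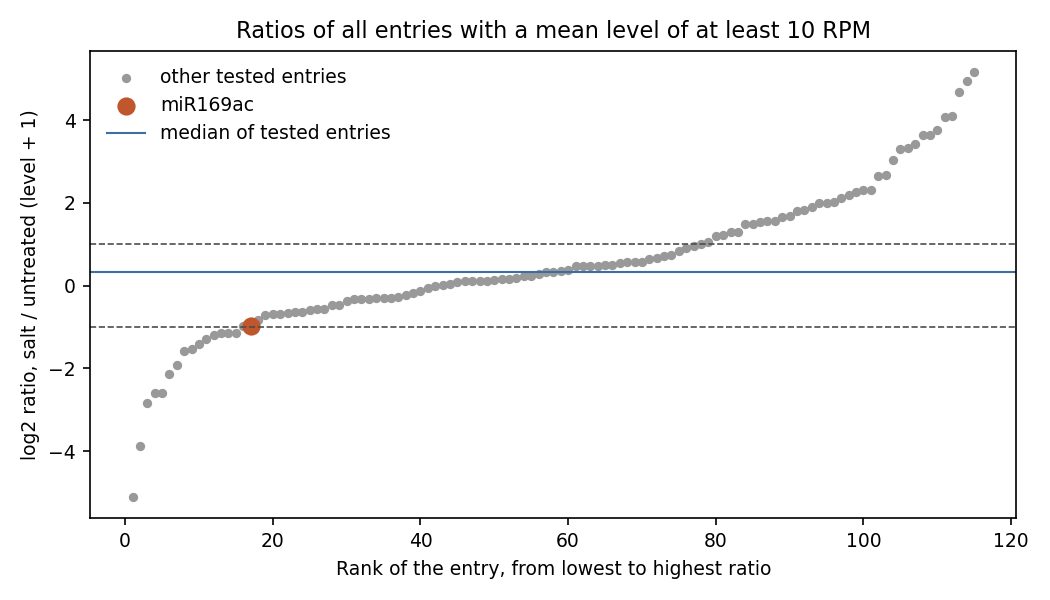
log2 ratio of salt over untreated levels (level + 1) for the 115 entries that reached the level minimum, ranked from lowest to highest. Dashed lines mark 2-fold, the blue line marks the median of 0.33, and miR169ac (orange) lies at -0.97, just inside the lower dashed line.

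The direction of miR169ac was the same under 6 ways of scaling the libraries, but its side of the 2-fold line was not. It was 2.20-fold lower when identical sequences were counted once in the total, and 2.55-fold lower with miR159 left out of the total. It was 2.74-fold lower with the median ratio of entries that had at least 10 reads in both libraries as reference, and 3.85-fold lower when the total left out the 5 most abundant entries. It was 1.68-fold lower without entries that may be fragments of ribosomal or transfer RNA. At least 2-fold lower were then 15.7%, 20.9%, 23.5%, 35.7% and 9.57% of entries, in the order just given. By construction, each scaling shifts all log2 ratios alike, apart from the effect of the + 1 on each level. The gap between miR169ac and the median entry and its rank were thus nearly fixed in advance. The gap ran from -1.32 to -1.30 log2 units over the 6 scalings, and 15 or 16 entries had a lower ratio under each of them.

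**Figure D3:**
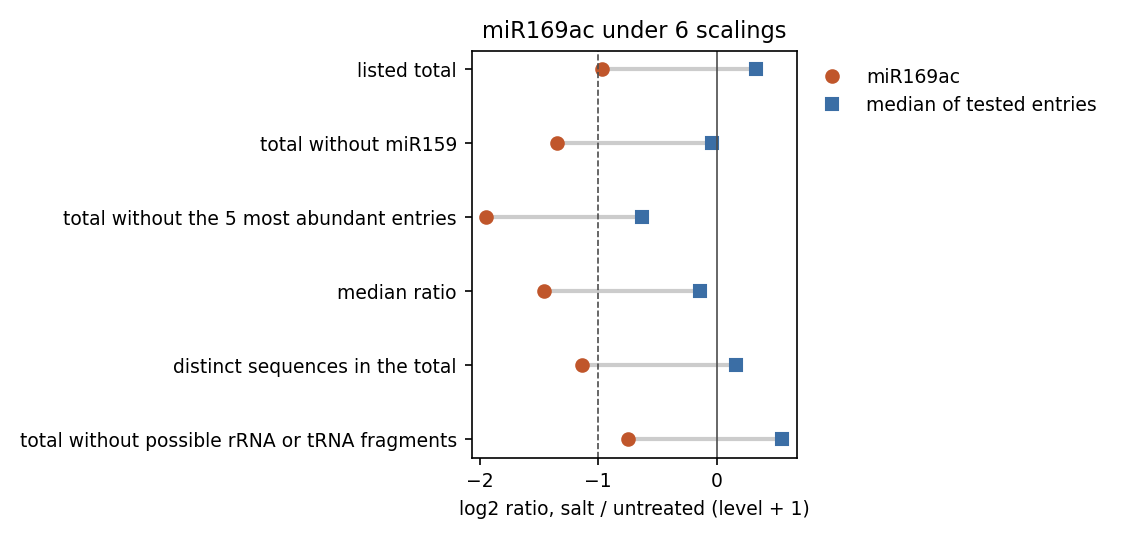
log2 ratio of salt over untreated (level + 1) for miR169ac (orange circles) and for the median of the 115 tested entries (blue squares) under 6 scalings, with 2-fold lower as a dashed line. miR169ac is below 0 throughout, between -1.94 and -0.75, while the median entry by construction moves with it, from -0.63 to 0.55.

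Among other families grouped by textbook role, members lay on both sides of 2-fold, and the balance moved with the scaling. For comparison, 37 of all 115 tested entries (32.2%) were higher and 15 (13.0%) lower, which became 23 and 41, with a median of -0.63, when the 5 most abundant entries were left out of the total. Families of phosphate, sulphate and copper nutrition (miR395, miR397, miR398, miR399, miR408, miR827 and miR2111) had 17 entries at the level minimum, of which 3 passed 2-fold upward and 3 downward (17.6% each). The median of their log2 ratios was 0.33, and the split became 1 upward and 4 downward when the 5 most abundant entries were left out of the total. Families known from abscisic acid, drought and salt responses (miR156, miR159, miR319, miR393, miR394, miR396, miR397, miR398 and miR408) had 27 such entries, with 3 higher (11.1%), 5 lower (18.5%) and a median of 0.01. Without the 5 most abundant entries 2 of them were higher and 12 lower, with a median of -0.97. Families known to target transcription factors other than NF-YA (miR156, miR159, miR160, miR164, miR166, miR167, miR171, miR172, miR319, miR396, miR828 and miR858) had 41 entries, with 15 higher (36.6%), 6 lower (14.6%) and a median of 0.15, shares close to those of all tested entries. That split became 10 higher and 16 lower, with a median of -0.82, when the 5 most abundant entries were left out of the total. It was 13 and 9 both without miR159 and with the median ratio. On the main scale, 3, 5 and 6 entries of these lists had a lower ratio than miR169ac. The lists share families, and the 205 entries held 199 distinct sequences, so these counts are not of independent members. For example, ptc-miR159a_R-1 and cpa-miR159a_R-1 had equal levels in both libraries, and each was counted as lower.

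The entries whose log2 ratio lay nearest to that of miR169ac, over the 2 libraries, were the predicted entry PC-3p-45230_79, ptc-miR394a-5p and ptc-miR3627a_R+1_1ss20TC. PC-3p-45230_79 stood at -0.99 log2, 0.02 from miR169ac, and rested on 104.5 untreated and 8 salt reads. ptc-miR394a-5p, known in Arabidopsis as the regulator of an F-box gene, had a log2 ratio of -0.83, 0.14 away, with levels of 4723 RPM and 2652 RPM. ptc-miR3627a had a ratio of -1.15, 0.18 away, with levels of 6465 RPM and 2922 RPM. With 1 ratio per entry this is a likeness of size only.

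The degradome listed NF-YA transcripts as cleaved at miR169 sites, and every such pair was assigned to miR169ab. Of the 17 pairs, 12 lay in transcripts with the symbols NFYA1, NFYA2, NFYA3, NFYA7, NFYA8 and NFYA9, and 5 in transcripts with the symbol WDR48. No pair of any other family carried an NF-YA symbol or WDR48, and the table held 0 pairs with an NF-YB or NF-YC symbol. The abundant miR169ac had 0 listed pairs, as had miR169z. Of the 16 entries with at least as many untreated reads as miR169ac, itself included, 5 had no pair, and of the 115 entries at the level minimum 47 (40.9%) had none. At the other end, 3 of the 100 entries with pairs had as few reads as miR169ab in both libraries, miR169ab included. Its 17 pairs were the most among these 3. Position alone cannot tell miR169ab from miR169ac, which align from the same first base, since the degradome reads only the cut end of the target. The entry miR169z starts 1 base further in, so the same cuts would lie opposite a different base of it. Which entry the cleaving small RNA belonged to was not tested.

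All 17 cuts lay opposite base 10 of miR169ab, counted from its 5′ end, the place at which plant miRNAs are known to direct cleavage. Over the whole degradome 88.0% of pairs had the cut at that place. Each aligned range spanned 20 bases, the length of miR169ab. The neighbouring base 11 is the position of C11T, where miR169ab and miR169ac differ.

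Several of the pairs may list the same reads more than once, going by the deposited signal, whose definition is not given. The deposited normalised signal, headed TPB, gave 52.7 units per read at NFYA2, NFYA8, NFYA9 and the NFYA3 pair at position 1375. At the NFYA1 and NFYA7 pairs and at 4 NFYA3 pairs it gave 13.2 units per read, 4 times less, and each of these sets held exactly 4 pairs. At WDR48 it gave 10.5 units per read, 5 times less, over exactly 5 pairs. In all 7 sets of equal reads, signal and alignment score, the number of pairs thus equalled the factor by which the signal per read was reduced, as it would if reads were divided over the transcripts they match. Over the whole table that factor was a whole number for 790 of 981 pairs, to within 1e-06, and equalled the number of listed pairs in the set for 58.9% of those. Counted once per set, the family's reads came to 52 in place of 146, and its NF-YA reads to 51 in place of 141. This count was chosen after the data were seen. The NF-YA share of reads was 98.1% (95% Clopper-Pearson interval 89.7 to 99.95) over the sets and 96.6% over all pairs, where no interval is given because reads may be listed repeatedly.

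The highest count was 28 reads, listed at position 1147 of an NFYA1 transcript and at positions 1110, 1268 and 2427 of NFYA7 transcripts. NFYA1 is known in Arabidopsis from male gametogenesis and embryo development, and plants with excess NFYA7 are dwarfed. If these are the same 28 reads at each, which the signal per read would allow but which was not tested, they cannot be assigned to NFYA1 or to NFYA7. The alignment score was 4, the worst among the family's pairs. Lower scores mark better matches, and 33.0% of all pairs in the degradome had a score of 4. Of all 981 pairs, 228 (23.2%) had at least 28 reads, the highest having 1137, and by its best site the family ranked 18 of 43 families with pairs.

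NFYA8, which acts with NFYA3 in Arabidopsis embryogenesis, had 11 reads at position 1146 with a score of 4. NFYA2, known in Arabidopsis from the control of root architecture by miR169, had 5 reads at position 2038 with a score of 3. NFYA9, a relative of NFYA1, had 2 reads at position 1948 with a score of 4. These 3 carried the full signal per read, and each symbol was listed at 1 position.

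NFYA3 had the best matches to miR169ab, the entry to which every pair was assigned, and few reads. Its 4 pairs at positions 1283, 1388, 1399 and 3191 had a score of 2 and 2 reads each. A further NFYA3 pair at position 1375 had a score of 3 and 3 reads. Over the 7 sets, the set with a score of 2 held 2 reads, the 2 sets with a score of 3 held 8, and the 4 sets with a score of 4 held 42, or 80.8% of the 52. The sites better matched to miR169ab were thus not those with the most reads, a description over 7 sets from 1 library. No score of these sites against the abundant miR169ac is listed. The amount of each target transcript was not measured, so reads at a site are not a rate of cleavage.

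WDR48, known in humans as a WD-repeat partner that activates deubiquitinating enzymes, was the 1 symbol outside the NF-YA group. Its 5 pairs at positions 1208, 1265, 1374, 1394 and 1416 had 1 read each with a score of 4. The signal per read would allow 1 read listed 5 times, which was not tested, and 1 read is the fewest any pair can have.

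**Figure D4:**
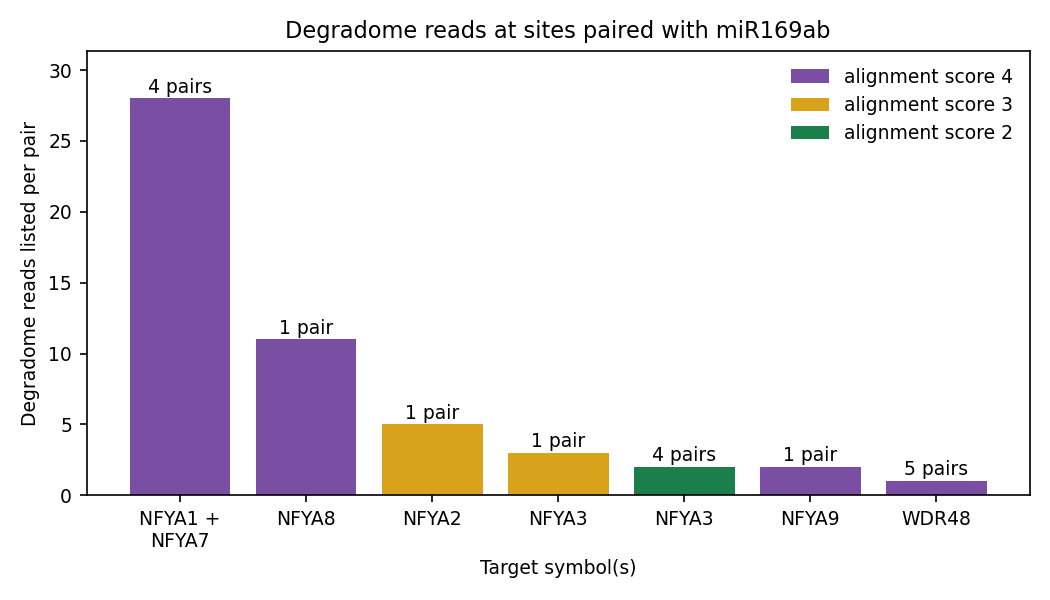
Degradome reads listed per pair at sites assigned to miR169ab, with pairs of equal symbol group, reads, signal and score drawn as 1 bar and the number of pairs above it. Colours give the alignment score of miR169ab, where lower is a better match. NFYA1 and NFYA7 share the bar of 28 reads with a score of 4, and the best-matched NFYA3 sites (score 2) have 2 reads.

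The degradome library mixed RNA of both conditions, so none of these sites can be compared between untreated and salt-treated plants. Positions are those of the deposited table on target transcripts that it does not identify. Coding and untranslated parts of the targets were therefore not assigned here.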

How the data were processed

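Small RNA values were deposited as raw, estimated counts of each mature miRNA, per the file headers, and 68 of 205 entries held parts of reads. Degradome reads were deposited as raw counts per cleavage position, beside an alignment score and a normalised signal headed TPB whose meaning is not spelled out, per the file headers. The sources used here name no mapping or calling tool.

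Sample titles linked the 0-day column to untreated plants and the 2-day column to salt. Levels are shares of the library's listed total, so 1 read was worth 0.216 RPM (untreated) or 1.36 RPM (salt). The log2 ratio was taken on RPM + 1, among entries with a mean of at least 10 RPM, and counts were rounded for exact binomial intervals. These intervals were checked on simulated whole counts with counting error only. That check covers neither the rounding of partial reads nor any further spread between libraries. Full library depth was not used here. The intervals cover the counting error of reads only. PCR copies are not independent molecules, so the intervals may be too narrow for the molecules sampled.

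All 3 miR169 entries, all their pairs, every NF-Y symbol and the 3 entries nearest in ratio were to be named. Members, lists and rules were chosen with earlier results of these data known. Alternatives covered scaling, pseudocount, level minimum, fold, thinning of reads, alignment score and read minimum. Python 3.11.15, pandas 2.3.3 and scipy 1.17.1 were used.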

Additional observations from a re-analysis of the deposited data

How the results depend on the processing

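The log2 ratio of miR169ac and that of the family sum stayed below 0 under every setting run. They left their counting interval, by the same amount, with the total without miR159 (-1.35 for both), without the 5 most abundant entries (-1.94), with the median ratio (-1.45), with identical sequences counted once in the total (-1.14) and with possible rRNA or tRNA fragments left out of it (-0.75). By construction a change of scale moves all entries alike. Pseudocounts of 0.1 and 5 left both at -0.97, and 1 random thinning of the untreated reads to the salt total gave -1.03, within the interval but past 2-fold. No miR169 sequence is listed under several names, so counting sequences once left the sum as it was. For all 115 tested entries, 37 were higher and 15 lower on the main scale. The lower count was 24 without miR159, 41 (with 23 higher) without the 5 most abundant entries, 27 with the median ratio and 25 at 1.5-fold. It was 34 with no filter on the level, among all 205 entries, and 9 among the fewer entries with a mean of at least 50 RPM. A change of the level minimum also changes how many entries are counted. Of the 3 lists, the number past 2-fold in either direction moved by over 1.5 times for the abiotic-stress families alone, from 8 to 14 without the 5 most abundant entries. That number hides shifts in balance under the same setting. Families known to target other transcription factors went from 15 higher and 6 lower to 10 higher and 16 lower. Nutrient families went from 3 higher and 3 lower to 1 higher and 4 lower. In the degradome, a score of at most 2.5 left 4 pairs, all 4 in NFYA3 and so 100% of reads in NF-YA. A minimum of 2 reads left the 12 NF-YA pairs (100%), and a minimum of 10 left 5, all 5 in NF-YA (100%). All WDR48 pairs have 1 read and a score of 4, so each of these cutoffs removes them. The shares of 100% were thus fixed in advance. Counting pairs of equal score, reads and signal once, added after the data were seen, left 7 sites, 6 of them in NF-YA. Depth limits miR169z and miR169ab, whose counts lie under the floor of 3 reads. No paired analysis was possible because each condition has 1 library.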
